A study of Mus musculus with 17 samples.

Results

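The 7 endodermal genes Sox17, Sox7, Gata4, Gata6, Hhex, Cxcr4 and Pcbd1 were followed in mouse embryonic stem cells sorted by FOXA2. They were chosen by symbol, with earlier results of these data known, matched to their Ensembl identifiers in the count tables, and make up 7 of 49671 genes. All 17 libraries came from R1 embryonic stem cells with the genotype FOXA2-Venus, from a series on neural tube organoids and how they form a floor plate, the strip of cells at the ventral midline. FOXA2, the forkhead factor used for the sort, marks both the floor plate and the endoderm. The FOXA2-positive and FOXA2-negative BMP4 groups (3 libraries each) had retinoic acid (RA) for 18 hours, no treatment for 6 hours, and then the bone morphogenetic protein BMP4 for 8 hours. The LDN groups followed that schedule with, in place of BMP4, an agent named only as LDN in the labels, in 2 FOXA2-positive libraries, numbered 2 and 3, and 3 FOXA2-negative ones. The RA groups (3 libraries each) had 18 hours of RA alone, so treatment and time of collection cannot be told apart in comparisons with RA. The labels do not say whether replicate libraries were separate cultures, so p-values reflect the spread among these libraries only, which could be technical.

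Definitive endoderm arises at gastrulation from cells exposed to Nodal, a secreted ligand whose inhibitors Lefty1 and Lefty2 are themselves Nodal targets, and goes on to form the lining of gut, liver, pancreas and lung. SOX17 is a core transcription factor of that lineage, and GATA4 and GATA6 act in the primitive and definitive endoderm and in the heart. PCBD1 serves both as a cofactor that binds HNF1 proteins and as an enzyme that recycles the cofactor tetrahydrobiopterin.

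Levels are given as CPM, each library's counts scaled to its total of counts assigned to genes, in libraries of 8435845 to 10796136 assigned counts (median 9785138). In such bulk samples, fewer cells of a type and less RNA per cell cannot be told apart. Foxa2 itself had 18.4 to 43.3 CPM in the 8 FOXA2-positive libraries, against 0 to 2.92 CPM in the 9 FOXA2-negative libraries, so the sort is visible in every library. Markers of definitive endoderm went both ways in the contrast averaged over treatments: Foxa1, Lhx1, Prdm1 and Sox17 were higher in FOXA2-positive cells, and Nodal, Epcam and Otx2 were lower. Cer1, a gene of anterior endoderm, had 0 counts in all 17 libraries, and Hhex stayed under 1 CPM in each. The cells are described by their FOXA2 sort. The 2 RA libraries numbered 1 had the highest mitochondrial shares, 7.43% in the FOXA2-positive and 6.94% in the FOXA2-negative library, and the fraction calls of members in RA and averaged over treatments were also made without them.

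The promoter of Pcbd1 is shown because Pcbd1 and Sox17 were the 2 members that passed the test between the sorted fractions averaged over treatments, and of these Pcbd1 alone has a promoter in the reference table, in which 3 of the 7 members (Hhex, Cxcr4 and Pcbd1) were found. The window runs from 250 bases before to 50 bases after the annotated start (RefSeq, GRCm38.p6, chr10:61089081-61089380, plus strand), and capitals mark matches to 4 motifs searched on both strands.
Pcbd1 promoter: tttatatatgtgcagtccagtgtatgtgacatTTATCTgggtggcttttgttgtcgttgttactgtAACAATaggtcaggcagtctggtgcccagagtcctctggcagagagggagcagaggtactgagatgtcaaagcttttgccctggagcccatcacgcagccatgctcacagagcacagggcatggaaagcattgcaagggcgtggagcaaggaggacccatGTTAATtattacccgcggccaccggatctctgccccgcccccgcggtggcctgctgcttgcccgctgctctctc
Reading from left to right, the capitals are a GATA motif (AGATAA, on the reverse strand, at -218 from the start), a SOX motif (AACAAT, at -184) and the left arm of an HNF1 site (GTTAAT, at -24). No forkhead motif (TGTTTAC) was found. These motifs occur in 11.2%, 10.7%, 7.10% and 3.65% of 32851 promoters of the same length, in the order GATA, SOX, HNF1 and forkhead, and none of the 4 was found in the Hhex or Cxcr4 window. At -24 the sequence differs at 1 of 12 letters from the palindromic HNF1 site (GTTAAT, any base, then ATTAAC), a search added after the GTTAAT match had been seen, and 0.207% of the promoters have a site with as few mismatches. None of the motifs overlaps another, and a match of letters does not show that a factor binds there.

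Sox17, an HMG-box transcription factor of the SOXF family (ENSMUSG00000025902, mm10 chr1:4490931-4497354, minus strand), was higher in FOXA2-positive cells. In the BMP4 arm its level was 33.5, 10.6 and 24.6 CPM in FOXA2-positive libraries, against 3.44, 1.92 and 13.9 CPM in FOXA2-negative libraries. In the LDN arm it was 32.8 and 54.2 CPM in FOXA2-positive libraries, against 4.49, 8.70 and 10.1 CPM in FOXA2-negative libraries. In the RA arm it was 21.3, 27.4 and 18.2 CPM in FOXA2-positive libraries, against 4.38, 2.26 and 3.62 CPM in FOXA2-negative libraries. The fractions did not overlap in LDN or RA. In BMP4 the FOXA2-negative library numbered 3 lay above the FOXA2-positive library numbered 2.

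With the fraction contrast averaged over the 3 treatments, Sox17 was higher in FOXA2-positive cells by 2.38 ± 0.32 on the log2 scale (± SE, adjusted p = 1.54e-05, edgeR's quasi-likelihood test). Within single treatments the log2 fold change was 1.87 ± 0.53 in BMP4 (adjusted p = 0.104), 2.54 ± 0.57 in LDN (adjusted p = 0.0241) and 2.72 ± 0.56 in RA (adjusted p = 0.0101). In BMP4 3 of 7 alternatives called Sox17, DESeq2 (adjusted p = 0.0446), the replicate block (0.0115) and edgeR with no filter on low counts (0.00216), with a range of 0.00216 to 0.259 over the 7. The BMP4 value also moved with 1 library: without the FOXA2-negative library numbered 3 it was 3.11, with an adjusted p of 0.00481 (range with each library left out 0.00481 to 0.400). The LDN call was lost when any 1 of its 5 libraries was left out (2.10 to 2.88, adjusted p 0.0512 to 0.288), and the RA call without both RA libraries numbered 1 (2.95, adjusted p = 0.0558) or without the FOXA2-negative library numbered 2 (2.51, adjusted p = 0.0825). The averaged contrast passed in each of the 17 fits with 1 library left out (2.23 to 2.79). The fraction difference of Sox17 was not shown to differ between treatments, with an interaction of -0.85 ± 0.74 for BMP4 against RA and -0.67 ± 0.77 for BMP4 against LDN, and adjusted p of 1.00 and 0.993.

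In the order of group means, Sox17 stood at 43.5 ± 15.2 CPM in FOXA2-positive LDN (SD, n = 2), 22.9 ± 11.5 in FOXA2-positive BMP4 and 22.3 ± 4.68 in FOXA2-positive RA (n = 3 each). The FOXA2-negative means followed at 7.75 ± 2.91 CPM in LDN, 6.41 ± 6.50 in BMP4 and 3.42 ± 1.08 in RA (n = 3 each). Neighbours within a fraction did not differ beyond their spread in the edgeR test. The nearest to a treatment difference was LDN against RA in FOXA2-negative cells, where every LDN library lay above every RA library, by 1.22 ± 0.54 (unadjusted p = 0.0333, adjusted p = 0.647, edgeR). In FOXA2-positive cells too every LDN library lay above every RA library, by 1.04 ± 0.56 (unadjusted p = 0.0739, adjusted p = 0.568, edgeR). The 5′ end of Sox17 overlaps an antisense gene, Gm37587, which had 0 counts in the series.

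Sox17 also marks endothelium, and 12 endothelial and blood markers were looked at beside it. Their summed level was 7.94 to 22.9 CPM in FOXA2-positive and 15.4 to 33.2 CPM in FOXA2-negative BMP4 libraries, 8.61 to 16.8 CPM in FOXA2-positive and 5.42 to 29.7 CPM in FOXA2-negative LDN libraries, and 5.71 to 9.57 CPM in FOXA2-positive and 25.6 to 40.0 CPM in FOXA2-negative RA libraries. Cdh5 and Emcn were at 0 counts in all libraries. None of the 9 testable markers passed as higher in FOXA2-positive cells in the averaged contrast. Pecam1, an endothelial adhesion molecule that pluripotent cells also express, fell by 3.87 ± 0.49 on the log2 scale (adjusted p = 7.10e-06, edgeR). It weighs heavily in the sums, with a median of 1.78 CPM over the 8 FOXA2-positive libraries, against 16.4 CPM over the 9 FOXA2-negative ones. Of the 9 markers, 5 had a log2 fold change above 0, and the median was 0.20 against -0.03 for all genes. The sums therefore do not show a fall of the markers as a set.

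Sox7, the other SOXF factor measured among the members and a gene of primitive endoderm (ENSMUSG00000063060, chr14:63943673-63950732, plus strand), was low throughout. It had 0.473, 0.409 and 0.774 CPM in FOXA2-positive BMP4 libraries, against 0.948, 0.320 and 0.195 CPM in FOXA2-negative ones. In LDN it had 0.278 and 1.82 CPM in FOXA2-positive libraries, against 0.104, 0.193 and 0.677 CPM in FOXA2-negative ones. In RA it had 3.03, 1.22 and 4.32 CPM in FOXA2-positive libraries, against 4.38, 0 and 3.18 CPM in FOXA2-negative ones. Fractions overlapped in every treatment, and the averaged fraction difference was 0.71 ± 0.94 (95% interval -1.24 to 2.65), so a change of either sign and several-fold size is within its error. Sox18, the remaining SOXF gene, stayed under 1 CPM in all libraries.

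**Figure D1:**
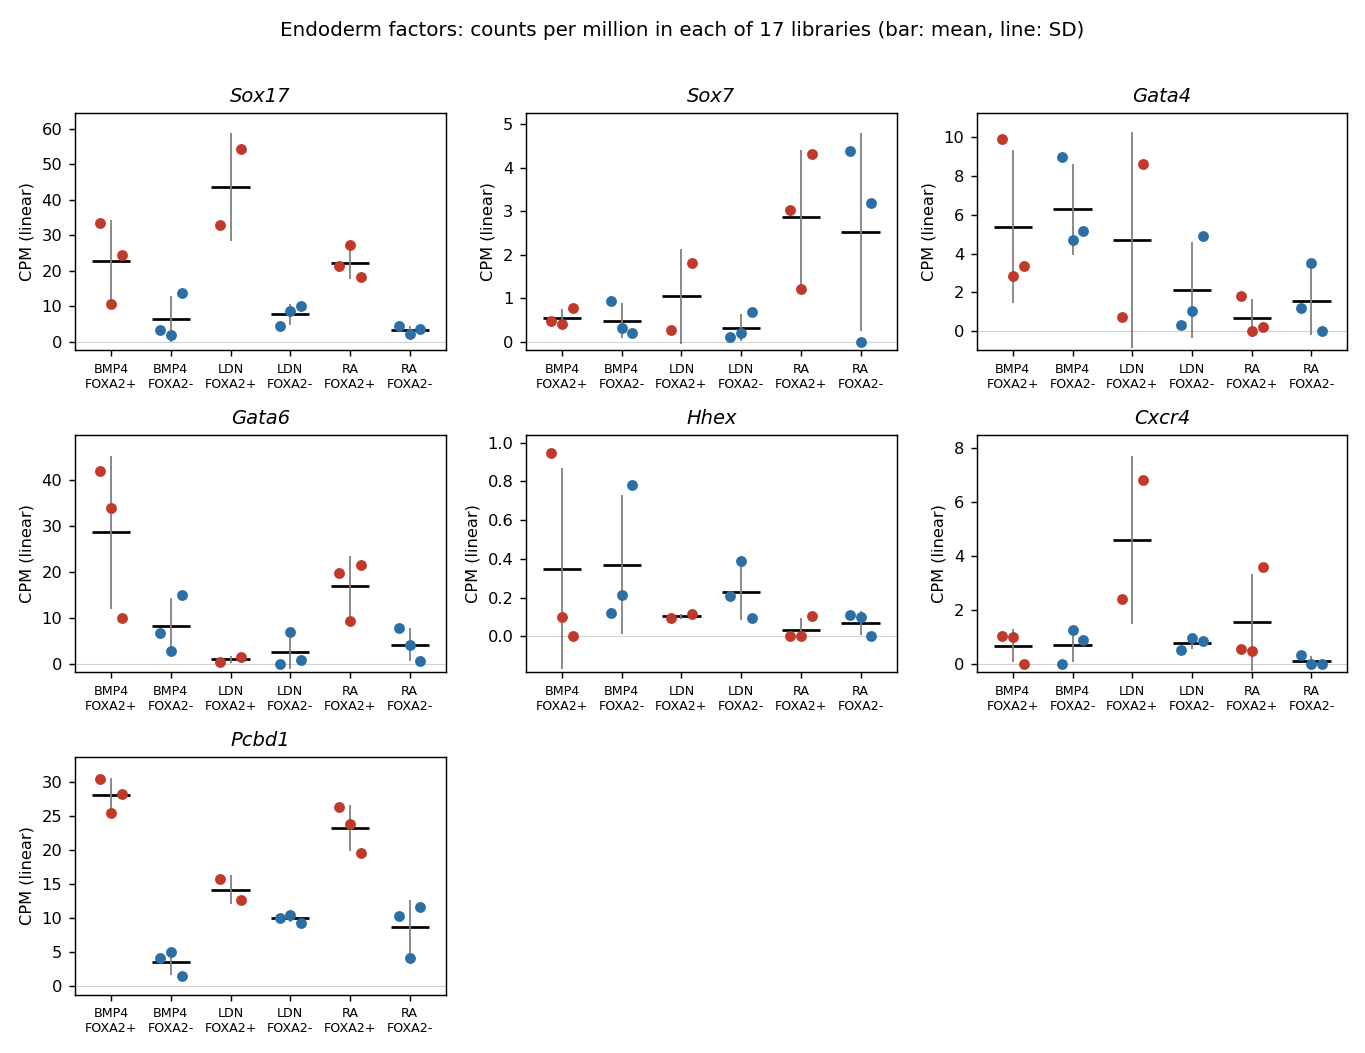
Level of each endoderm factor in CPM (linear axis, a separate scale for each gene) in the 6 groups; points are libraries (red FOXA2-positive, blue FOXA2-negative), bars are group means and lines are ± 1 SD. Sox17 and Pcbd1 are higher in FOXA2-positive than FOXA2-negative libraries in each treatment apart from 1 BMP4 overlap for Sox17, Gata6 reaches 41.9 CPM in FOXA2-positive BMP4 and stays at or under 1.59 CPM in FOXA2-positive LDN, and Hhex stays under 1 CPM.

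Gata6, a zinc-finger factor of primitive endoderm, definitive endoderm and heart (ENSMUSG00000005836, chr18:11052064-11085635, plus strand), had the largest fitted treatment difference of the members, in FOXA2-positive cells. Its level there was 41.9, 33.9 and 9.97 CPM in BMP4 libraries, 0.556 and 1.59 CPM in LDN libraries, and 19.7, 9.41 and 21.6 CPM in RA libraries. Both LDN libraries thus lay below every BMP4 and every RA library, while BMP4 and RA overlapped. In FOXA2-negative cells it was 6.76, 2.88 and 15.03 CPM in BMP4, 0, 6.96 and 0.968 CPM in LDN, and 7.89, 4.12 and 0.658 CPM in RA, and all 3 treatments overlapped.

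Neither difference of Gata6 in FOXA2-positive cells passed the edgeR test over all genes. BMP4 against LDN gave 4.69 ± 1.44 (unadjusted p = 0.00504, adjusted p = 0.349), and LDN against RA gave -3.91 ± 1.39 (unadjusted p = 0.0129, adjusted p = 0.368). The call depended on the tool, the filter and the samples fitted: DESeq2 called both (adjusted p = 0.00550 and 0.0412), as did edgeR with no filter on low counts (7.27e-08 and 1.79e-05), and edgeR on the compared groups alone called BMP4 against LDN (0.00825). These settings called more genes of any kind. For BMP4 against LDN the counts were 189, 196 and 95 in that order, against 57 in the main fit. For LDN against RA, DESeq2 called 230 genes and edgeR with no filter 294, against 37 in the main fit. Over all alternatives, fits with 1 library left out included, the adjusted p ran from 7.27e-08 to 0.794 for BMP4 against LDN and from 1.79e-05 to 0.747 for LDN against RA. The biological coefficient of variation fitted for Gata6 was 0.852, against 0.440 for genes of like abundance, which measures how far its replicates scatter. The fraction difference of Gata6 was 1.84 ± 1.03 in BMP4, -1.26 ± 1.30 in LDN and 2.03 ± 1.05 in RA, with adjusted p of 0.536, 0.771 and 0.515. In RA the fractions did not overlap, in BMP4 and LDN they did. An antisense gene, 1010001N08Rik, overlaps the start of Gata6 and had 40 counts in the whole series. Reads falling in both genes could have been counted for neither, so this count does not limit how many were shared.

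By group mean Gata6 ran from 28.6 ± 16.6 CPM in FOXA2-positive BMP4 (n = 3) and 16.9 ± 6.56 in FOXA2-positive RA (n = 3) through 8.22 ± 6.20 in FOXA2-negative BMP4, 4.22 ± 3.62 in FOXA2-negative RA and 2.64 ± 3.77 in FOXA2-negative LDN (SD, n = 3 each) to 1.07 ± 0.73 in FOXA2-positive LDN (n = 2). Each neighbour in that order overlapped the next. In LDN the FOXA2-positive mean lay below the FOXA2-negative mean, which rests on 1 FOXA2-negative library at 6.96 CPM beside 2 at 0 and 0.968 CPM, and with 1 LDN library left out the fraction difference ran from -2.21 to 1.13. The difference of fraction effects was 3.11 ± 1.67 for BMP4 against LDN (adjusted p = 0.819), which does not pass.

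Gata4, the other GATA factor of endoderm and heart (ENSMUSG00000021944, chr14:63198922-63271692, minus strand), had its BMP4 libraries above its RA libraries in both fractions, a difference that did not pass the test. It had 9.93, 2.86 and 3.39 CPM in FOXA2-positive and 9.01, 4.70 and 5.17 CPM in FOXA2-negative BMP4 libraries. In LDN it had 0.741 and 8.63 CPM in FOXA2-positive and 0.313, 1.06 and 4.94 CPM in FOXA2-negative libraries. In RA it had 1.79, 0 and 0.206 CPM in FOXA2-positive and 1.21, 3.53 and 0 CPM in FOXA2-negative libraries. The BMP4 and RA libraries of a fraction thus did not overlap, while the fractions overlapped within each treatment. BMP4 against RA gave 3.04 ± 1.40 in FOXA2-positive cells (adjusted p = 0.825) and 1.98 ± 1.32 in FOXA2-negative cells (adjusted p = 0.745), both by edgeR. The averaged fraction difference was -0.08 ± 0.74 (95% interval -1.60 to 1.45), and -0.97 to 0.46 with 1 library left out.

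Of the GATA genes that are not members, Gata3 and Gata2 passed the test between BMP4 and LDN. Gata3, a factor of trophoblast and surface ectoderm and a BMP target, had 67.2, 65.2 and 71.3 CPM in FOXA2-positive BMP4 libraries, against 4.08 and 15.7 CPM in FOXA2-positive LDN libraries. It was higher in BMP4 by 2.73 ± 0.42 in FOXA2-positive cells and by 2.33 ± 0.35 in FOXA2-negative cells (adjusted p = 0.000802 and 0.000836, edgeR). Gata2 was higher in BMP4 than LDN by 3.81 ± 0.76 in FOXA2-positive cells (adjusted p = 0.0294). Between the fractions Gata2 was lower in FOXA2-positive cells in the averaged contrast (-1.90 ± 0.36, adjusted p = 0.00250, edgeR). Of the 5 testable genes among SOXF and GATA relatives and GATA cofactors, 2 were higher in BMP4 than LDN in FOXA2-positive cells, 1 was higher in FOXA2-negative cells and none was lower, beside 0.32% and 0.196% of all genes called in either direction.

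Markers of heart mesoderm, a tissue that uses both Gata4 and Gata6, were looked at beside Gata6. The summed level of the 10 markers was 32.1 to 50.1 CPM in FOXA2-positive BMP4 libraries, 4.35 to 7.94 CPM in FOXA2-positive LDN libraries and 15.5 to 43.8 CPM in FOXA2-positive RA libraries. In FOXA2-negative cells, where Gata6 overlapped between treatments, it was 47.1 to 61.6 CPM in BMP4, 13.8 to 18.8 CPM in LDN and 25.3 to 33.1 CPM in RA libraries. Of the 9 testable markers 1 passed for BMP4 against LDN in FOXA2-positive cells, Myl7, a myosin light chain of the atrium, at 3.71 ± 0.64 (adjusted p = 0.00308, edgeR), and none passed in FOXA2-negative cells. For BMP4 against LDN, 6 of the 9 had a log2 fold change above 0 in FOXA2-positive cells, with a median of 3.71. In FOXA2-negative cells 4 of the 9 did, with a median of 0, so the sums there do not show a rise of the markers as a set. Myocd stayed under 1 CPM in every library. The part of these markers in the Gata6 values was not tested.

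Hhex, a homeobox factor of anterior endoderm and the liver bud (ENSMUSG00000024986, chr19:37434810-37440731, plus strand), had 34 counts in the whole series. Its highest levels were 0.946 CPM, from 10 counts in 1 FOXA2-positive BMP4 library, and 0.781 CPM, from 8 counts in 1 FOXA2-negative BMP4 library, and 4 libraries had none. It failed the filter on low counts and was the only member not tested. With the filter removed, edgeR gave it an adjusted p of 0.919 or more in each of the 13 contrasts.

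Cxcr4, the receptor of the chemokine CXCL12 and a surface marker of definitive endoderm (ENSMUSG00000045382, chr1:128588199-128592293, minus strand), was highest in FOXA2-positive LDN cells. It had 2.41 and 6.81 CPM there, against 0.522, 0.967 and 0.871 CPM in FOXA2-negative LDN cells. In RA it had 0.560, 0.471 and 3.60 CPM in FOXA2-positive libraries, against 0.329, 0 and 0 CPM in FOXA2-negative libraries. In BMP4 it had 1.04, 1.02 and 0 CPM in FOXA2-positive libraries, against 0, 1.28 and 0.878 CPM in FOXA2-negative libraries. The fractions were apart in LDN and RA and overlapped in BMP4. The RA groups held 45 counts in FOXA2-positive and 3 in FOXA2-negative cells, a ratio of 14.6 with a 95% counting interval of 4.68 to 73.3. That interval leaves out the spread between libraries, and 35 of the 45 counts came from the library numbered 3. With the spread included, the RA difference was 3.72 ± 1.94 on the log2 scale (95% interval -0.27 to 7.71, adjusted p = 0.503, edgeR), which did not pass. The averaged fraction difference was 2.09 ± 1.06 on the log2 scale (95% interval -0.08 to 4.26, adjusted p = 0.270, edgeR), which did not pass. Of its ligand, decoy receptor and relatives, 3 of 4 were testable, none passed in the averaged contrast, and Cxcr3 stayed under 1 CPM in all libraries.

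Pcbd1, the dimerisation cofactor of HNF1 and pterin-4a-carbinolamine dehydratase (ENSMUSG00000020098, chr10:61089331-61094324, plus strand), was higher in FOXA2-positive cells and had the lowest scatter of the 6 members tested, with a biological coefficient of variation of 0.346. In BMP4 it had 30.6, 25.4 and 28.3 CPM in FOXA2-positive libraries, against 4.15, 5.13 and 1.46 CPM in FOXA2-negative libraries. In LDN it had 15.7 and 12.7 CPM in FOXA2-positive libraries, against 10.03, 10.5 and 9.39 CPM in FOXA2-negative libraries. In RA it had 26.3, 23.8 and 19.6 CPM in FOXA2-positive libraries, against 10.3, 4.22 and 11.7 CPM in FOXA2-negative libraries. The fractions did not overlap in any treatment, and all 8 FOXA2-positive libraries (12.7 to 30.6 CPM) lay above all 9 FOXA2-negative ones (1.46 to 11.7 CPM).

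The averaged fraction difference of Pcbd1 was 1.66 ± 0.25 (adjusted p = 6.86e-05, edgeR). By treatment it was 2.998 ± 0.44 in BMP4 (adjusted p = 0.000671), 0.56 ± 0.45 in LDN (adjusted p = 0.665) and 1.43 ± 0.41 in RA (adjusted p = 0.108, 0.0291 by DESeq2, and 0.0291 to 0.384 over all alternatives). The averaged and the BMP4 call held in every alternative tried and with any library left out.

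Between BMP4 and LDN the Pcbd1 values lay in opposite directions in the fractions. In FOXA2-positive cells every BMP4 library lay above every LDN library, by 0.94 ± 0.46 (adjusted p = 0.676), and in FOXA2-negative cells every BMP4 library lay below every LDN library, by -1.51 ± 0.43 (unadjusted p = 0.00170, adjusted p = 0.259). The interaction, BMP4 against LDN, was 2.44 ± 0.64 (95% interval 1.13 to 3.75, unadjusted p = 0.000731), and its adjusted p over all genes was 0.395, so it did not pass. By group mean the order was 28.1 ± 2.56 CPM in FOXA2-positive BMP4 (n = 3), 23.3 ± 3.38 in FOXA2-positive RA (n = 3), 14.2 ± 2.15 in FOXA2-positive LDN (n = 2), 9.99 ± 0.58 in FOXA2-negative LDN, 8.75 ± 3.99 in FOXA2-negative RA and 3.58 ± 1.90 in FOXA2-negative BMP4 (SD, n = 3 each). Ranges overlapped between FOXA2-positive BMP4 and RA, between FOXA2-negative LDN and RA, and between FOXA2-negative RA and BMP4, and were apart at the other 2 steps.

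**Figure D2:**
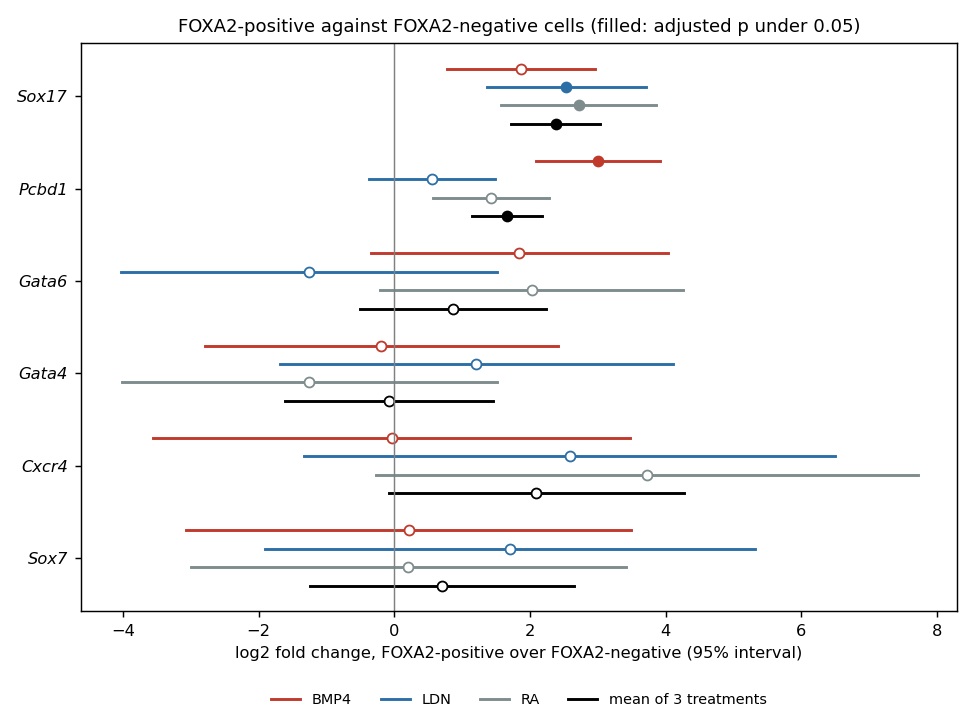
Log2 fold change of FOXA2-positive over FOXA2-negative cells for the 6 tested members, within BMP4, LDN and RA and averaged over the 3 treatments; points are edgeR estimates, lines 95% intervals, and filled points have an adjusted p under 0.05. Sox17 is filled in LDN, RA and the average, Pcbd1 in BMP4 and the average, and the intervals of the other 4 members cross 0 throughout.

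Counted over members, 1 of the 6 tested was higher in FOXA2-positive cells in each treatment, Pcbd1 in BMP4 and Sox17 in LDN and RA, where 0.32%, 0.286% and 0.371% of all genes were called higher. In the averaged contrast 2 of 6 were higher, beside 3.12% of all 17813 genes tested, and none was lower, beside 4.5%. The median log2 fold change of the 6 was 1.264, against -0.03 for all genes tested, and this median leaves out Hhex. The genes of the chromosomes that carry members had medians between 0.01 and 0.05 in that contrast. The members were chosen with earlier results of these data known, so the counts and the median describe the list and do not test it.

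No member passed edgeR's test in any of the 6 treatment comparisons. All genes called, in either direction, came to 0.0786% for BMP4 against RA in each fraction. They came to 0.208% for LDN against RA and 0.32% for BMP4 against LDN in FOXA2-positive cells, and to 0.0393% and 0.196% for the same comparisons in FOXA2-negative cells. At an unadjusted p under 0.05 there was 1 member in each comparison: Gata4 in FOXA2-positive and Pcbd1 in FOXA2-negative cells for BMP4 against RA, Gata6 in FOXA2-positive and Sox17 in FOXA2-negative cells for LDN against RA, and Gata6 in FOXA2-positive and Pcbd1 in FOXA2-negative cells for BMP4 against LDN. At that unadjusted threshold the 6 comparisons each held between 998 and 1666 of all 17813 genes tested. DESeq2 called 1 member, Gata6, in FOXA2-positive cells for LDN against RA and for BMP4 against LDN, and 0 in the other 4. Of all genes it called 230 and 189 in those 2 comparisons, against 37 and 57 by edgeR. For the 3 interactions edgeR called no member, beside 0.00561%, 0.00561% and 0.0337% of genes for BMP4 against RA, LDN against RA and BMP4 against LDN. At an unadjusted p under 0.05 the interactions held Pcbd1 for BMP4 against RA and against LDN, and no member for LDN against RA. Of all 17813 genes, 742, 1100 and 1035 were under 0.05 in these 3 interactions, in that order.

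**Figure D3:**
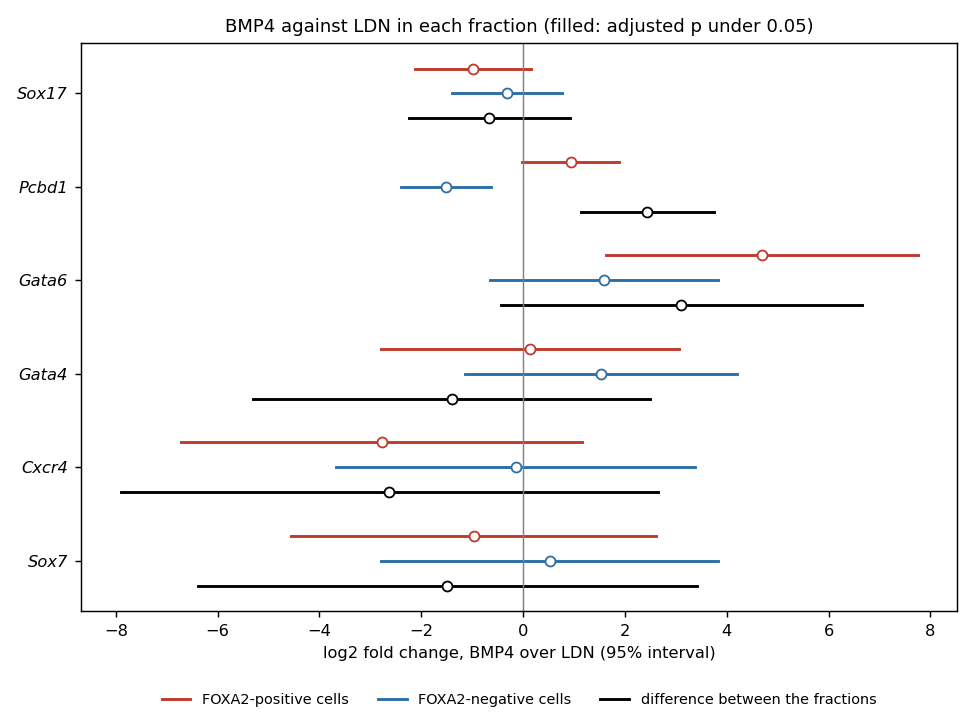
Log2 fold change of BMP4 over LDN for the 6 tested members in FOXA2-positive cells (red) and FOXA2-negative cells (blue), and the difference between the fractions (black); points are edgeR estimates, lines 95% intervals, and open points have an adjusted p of 0.05 or more. Pcbd1 lies above 0 in FOXA2-positive cells (0.94) and below 0 in FOXA2-negative cells (-1.51), Gata6 lies at 4.69 in FOXA2-positive cells, and no point is filled.

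Other endoderm genes differed between the fractions in both directions. Of the 13 testable genes reported here from a list of definitive endoderm, 4 were higher and 3 lower in FOXA2-positive cells in the averaged contrast, with a median of -0.33 against -0.03 for all genes. The higher ones were Foxa2, on which the cells were sorted, its relative Foxa1 (2.54 ± 0.65, adjusted p = 0.0173), the LIM-homeobox factor Lhx1 (1.31 ± 0.30, adjusted p = 0.00611) and the repressor Prdm1 (1.94 ± 0.50, adjusted p = 0.0157, all edgeR). Several of these also serve the floor plate, notochord or node. The lower ones were Nodal, the epithelial adhesion gene Epcam (-0.48 ± 0.09, adjusted p = 0.000682) and Otx2, an anterior factor with 0 counts in all 8 FOXA2-positive libraries (adjusted p = 0.0383, edgeR). In FOXA2-negative libraries Otx2 had 15, 28 and 6 counts in BMP4, 12, 0 and 0 in LDN, and 30, 5 and 0 in RA, so that in LDN and RA its counts came mostly from the library numbered 1.

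Of the 5 testable genes reported here from a list of PCBD1 partners and pterin enzymes, 1 was higher and none lower in the averaged contrast. It was Spr, sepiapterin reductase, which acts in tetrahydrobiopterin synthesis (0.48 ± 0.12, adjusted p = 0.0102, edgeR). Medians over whole chromosomes ran from -0.292 (chromosome 8) to 0.294 (chromosome 6) in that contrast. The value of Spr was not adjusted for its chromosome, and the part of such shifts in it was not tested. Pcbd2, the paralogue of Pcbd1, had 57.2, 73.5 and 74.7 CPM in FOXA2-positive BMP4 libraries, against 73.3, 58.5 and 62.2 CPM in FOXA2-negative ones.

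Genes of the Nodal pathway were lower in FOXA2-positive cells where they passed, with 1 exception. Of 13 testable genes 5 were lower and 1 was higher in the averaged contrast (median -0.22 against -0.03). Nodal had 3.12, 1.43 and 5.23 CPM in FOXA2-positive BMP4 libraries, against 6.52, 10.9 and 6.54 CPM in FOXA2-negative ones, and fell by 2.98 ± 0.45 over the 3 treatments (adjusted p = 8.14e-05, edgeR). Lefty1 fell by 4.01 ± 1.05 (adjusted p = 0.0391), although the fractions overlapped in RA, and Gdf3, a relative of Nodal, by 0.79 ± 0.14 (adjusted p = 0.000365). Lefty2 also passed as lower (adjusted p = 0.00198), with 0 counts in every FOXA2-positive BMP4 and LDN library, against 17, 50 and 124 counts in FOXA2-negative BMP4 libraries and 9, 2 and 236 in FOXA2-negative LDN libraries. In RA its fractions overlapped, with 5, 2 and 0 counts in FOXA2-positive libraries, against 0, 100 and 55 in FOXA2-negative ones. Tdgf1, the Nodal co-receptor, passed as lower too (adjusted p = 0.00655, edgeR). It had 0 counts in every FOXA2-positive LDN and RA library, against 5.61 to 28.1 CPM in FOXA2-negative LDN and 14.8 to 27.7 CPM in FOXA2-negative RA libraries. In BMP4 its fractions overlapped, at 0, 0 and 6.48 CPM in FOXA2-positive libraries, against 10.2, 16.8 and 3.12 CPM in FOXA2-negative ones. The receptor Acvr2b was the exception (0.54 ± 0.10, adjusted p = 0.00119).

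**Figure D4:**
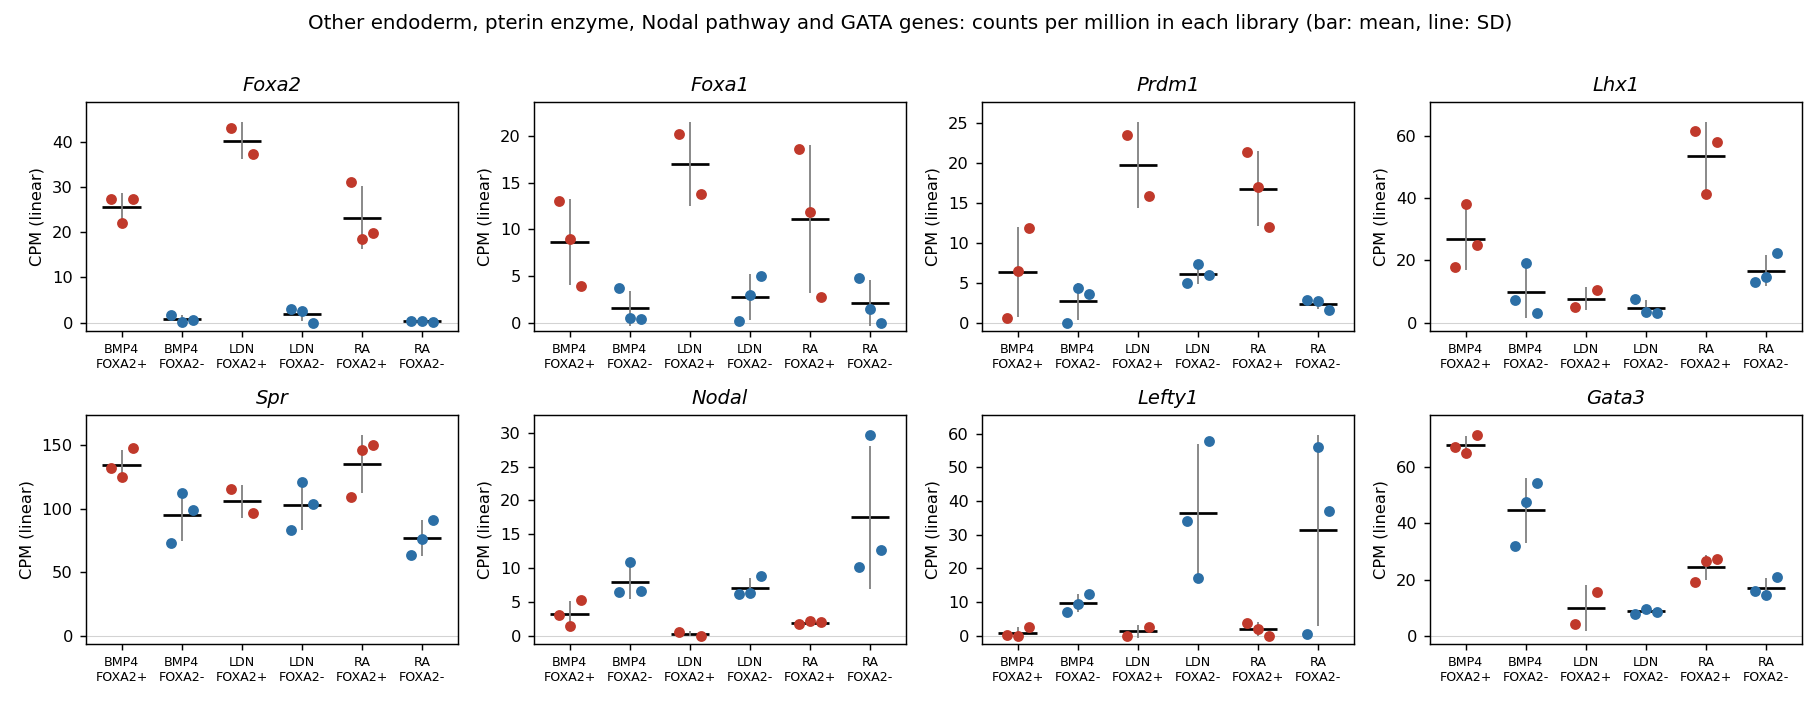
Levels in CPM (linear axis, a separate scale for each gene) of other endoderm, pterin enzyme, Nodal pathway and GATA genes in the 6 groups; points are libraries (red FOXA2-positive, blue FOXA2-negative), bars are means and lines are ± 1 SD. Foxa2 separates the fractions in every treatment, Nodal is lower in FOXA2-positive libraries of each treatment, and Gata3 reaches 71.3 CPM in FOXA2-positive BMP4 against at most 15.7 CPM in FOXA2-positive LDN.

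Pluripotency genes moved with the sort. Of 12 such genes, which include Tdgf1, 10 were lower and none higher in FOXA2-positive cells in the averaged contrast. The median log2 fold change of the 12 was -2.13, against -0.03 for all genes, and it was -2.17 within LDN, where the sums of the fractions overlapped. The part of these genes in the fraction differences of the members was not tested. The summed level of the 12 was 2192 to 2804 CPM in FOXA2-positive and 2733 to 4139 CPM in FOXA2-negative BMP4 libraries. It was 1977 to 2251 CPM in FOXA2-positive and 1918 to 2699.9 CPM in FOXA2-negative LDN libraries. In RA it was 1274 to 1990.3 CPM in FOXA2-positive and 2092.5 to 3031 CPM in FOXA2-negative libraries, and none of the 12 stayed under 1 CPM in every library. Of the 20 testable genes of extraembryonic endoderm, 4 were higher in FOXA2-positive cells, Dab2, an endocytic adaptor (1.39 ± 0.38, adjusted p = 0.0229), and the basement membrane genes Lama1 (2.03 ± 0.49, adjusted p = 0.0170), Lamb1 (0.64 ± 0.12, adjusted p = 0.000738) and Col4a1 (1.56 ± 0.32, adjusted p = 0.00257). The lipid carrier Apoe was lower (-0.49 ± 0.11, adjusted p = 0.00461, all edgeR). Of the 7 testable floor plate genes 3 were higher (Foxa2, Foxa1 and Slit1, an axon guidance ligand, at 2.33 ± 0.70, adjusted p = 0.0397), with Ferd3l at 0 counts in all libraries. Of 9 testable neural progenitor genes 2 were higher, the cadherin Cdh2 (1.177 ± 0.22, adjusted p = 0.000893) and Ncam1 (0.61 ± 0.13, adjusted p = 0.00456), and none was lower.

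The genes most like each member over the 17 libraries were found by Pearson's r of log2(CPM + 1) among 10620 genes, as a description, since all libraries share the same sort and treatments. For Sox17 they were Cdc42ep1 (0.928), an effector of the small GTPase CDC42, Tagln2 (0.917), Ddah2 (0.870), Pclaf (0.870) and Ivns1abp (0.866). For Gata6 they were Rai14 (0.838), Rftn1 (0.834) and Rab34 (0.830), and for Pcbd1 Ndufb2 (0.880), Wbp11 (0.873) and Zfp36l1 (0.870). Ndufb2 and Wbp11 lie on chromosome 6, whose genes had a median log2 fold change of 0.29 between the fractions in the averaged contrast, against 0.05 for chromosome 10, which carries Pcbd1.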

How the data were processed

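Per the labels' protocols, libraries of RNA from FOXA2-sorted mouse cells were made with SMART-Seq v2. For each of 17 libraries the authors deposited raw counts per Ensembl gene (49671 genes and 5 summary lines, which took 49.32% to 54.41% of all tallied reads and were dropped). Per the submitters' processing notes, the tools included HTSeq 0.11.2, UMI-tools 1.0.0, DESeq2 1.26.0 and cutadapt 1.18, with mm10 as the build. No aligner, strand setting or rule for multi-mapping reads is given in the sources used. Without the strand setting, reads of overlapping antisense genes cannot be told apart.

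Levels are CPM of the library's assigned counts, without TMM. Tests used edgeR 4.0.16 in R 4.3.3: filterByExpr (minimum count 10, minimum total 15) kept 17813 genes and 6 members, TMM factors were 0.943 to 1.05, and 1 robust quasi-likelihood model of 6 groups (11 residual degrees of freedom) gave 13 contrasts, each adjusted over all genes (Benjamini-Hochberg, threshold 0.05). Standard errors were derived from the log2 fold change and its F statistic (size over root F) and are approximate. The fit was tested on simulated data. Counting intervals and floors of 3 counts cover counting error only. Alternatives were RLE scaling, library totals alone, DESeq2 1.42.0, no filter, a filter of 5 CPM in 2 libraries, the compared groups alone, a replicate block, and leaving out each library or both RA libraries numbered 1.

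Whether numbers pair the libraries was checked by correlating deviations from group means over 6669 genes. In RA, same-numbered fractions gave r of 0.587, 0.238 and 0.277, all above the 0.1 asked for, so the numbers were taken to pair them there, although libraries numbered 2 and 3 also correlated across numbers (0.243 and 0.168); in BMP4 (0.0508 to 0.0793) and LDN (0.0566 and 0.0615) they were not. All members and Foxa2 are named; of the other lists, genes past the threshold could be named, and Pcbd2, Cer1 and genes under 1 CPM or at 0 counts are named outside that rule. Likeness was searched among genes averaging 5 CPM or more, without predicted genes. Members and lists were chosen with earlier results of these data known, and 1 gene of the endoderm and PCBD1 lists is not reported here and is left out of their counts.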

Additional observations from a re-analysis of the deposited data

Results flagged for a closer look

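Pcbd1 was marked for a closer look because BMP4 and LDN set every library apart in both fractions, in opposite directions. The rule looked at the members only, and the share of all genes that meet it was not counted. The interaction p below is thus for a gene picked by its pattern. In FOXA2-positive cells Pcbd1 had 30.6, 25.4 and 28.3 CPM in BMP4, against 15.7 and 12.7 CPM in LDN. In FOXA2-negative cells it had 4.15, 5.13 and 1.46 CPM in BMP4, against 10.03, 10.5 and 9.39 CPM in LDN. The difference of the fraction effects was 2.44 on the log2 scale. It was tested as an interaction, with an unadjusted p of 0.000731 and an adjusted p of 0.395 over all genes (edgeR), and so did not pass. Over 7 alternatives it ranged from 2.42 to 2.58 (adjusted p 0.0603 to 0.463), and over 11 fits with 1 library left out from 2.05 to 2.82 (adjusted p 0.314 to 0.836).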

How the results depend on the processing

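The averaged fraction contrast called 2 members, Sox17 and Pcbd1, in the main fit, in all 7 alternatives and in the 17 fits with 1 library left out. For RA the count of 1 became 2 with no filter on low counts (Sox17 and Gata6) and with DESeq2 (Sox17 and Pcbd1), and 0 without both RA libraries numbered 1; leaving out 1 library gave 0 to 1. For BMP4 the count of 1 became 3 with no filter (Sox17, Gata6 and Pcbd1), 2 with DESeq2 and 2 with the replicate block (Sox17 2.18 ± 0.46, adjusted p = 0.0115), and leaving out 1 library gave 1 to 2. These settings called more of all genes too. In RA no filter called 466 genes and DESeq2 486, against 213 with RLE scaling. In BMP4 no filter called 411, DESeq2 476 and the replicate block 282, against 164 with RLE scaling. For LDN the count of 1 held in 7 alternatives and was 0 to 0 with 1 library left out. In FOXA2-positive cells, LDN against RA gave 1 member in place of 0 with no filter and with DESeq2, and BMP4 against LDN gave 1 with no filter, DESeq2 and the compared groups alone, each time Gata6. The cause was not tested. No call of a member reversed, while uncalled fraction differences changed sign with 1 library left out, among them Gata6 in LDN (-2.21 to 1.13) and the averaged value of Gata4 (-0.97 to 0.46).

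The block changed no other call of a member. In RA, Sox17 had an adjusted p of 0.00119 with it (edgeR), but whether libraries of the same number belong together there is uncertain. The FOXA2-positive RA library numbered 2 gave r of 0.238 with the FOXA2-negative library of its own number, against 0.243 with the one numbered 3. The smaller p in RA therefore carries no extra weight. For treatment comparisons a block across groups was used, added after the data were seen, since a block within treatment cannot estimate them. The compared groups alone give no separate value for the averaged contrast. With 1 LDN library left in FOXA2-positive cells, it is assumed to vary like the other groups. At these depths, 3 counts over a group correspond to 0.0978 to 0.153 CPM, which limits Hhex, Cxcr4 and Sox7 most.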
